A study of Mus musculus with 12 samples.

Results

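Regulatory DC (DCreg) were set directly against immature DC (imDC) by their lists of m6A peaks. imDC were grown from the bone marrow of 6-week-old C57BL/6 mice with GM-CSF (10 ng/ml) and IL-4 (1 ng/ml) and selected for CD11c with magnetic beads. DCreg began as the same cells, were matured for 24 h with LPS at 100 ng/ml and then kept with spleen endothelial cells for 7 days, so LPS, the endothelial cells and the added time in culture all separate DCreg from imDC and cannot be told apart. The sources describe the CD11c bead selection but do not state whether DCreg were selected again after the endothelial cells had been added, and the methods describe marrow pooled from several mice. Each DC type had 2 replicates, each as an input library and a library immunoprecipitated (IP) with an m6A antibody from poly(A) RNA, which gives 8 of the 12 libraries of the series, the other 4 being LPS-matured DC (maDC) without endothelial cells. The paper calls the replicates biological, while nothing in the labels states that they came from separate mice. The p-values measure the spread between these replicates, which may be partly technical. A gene was taken as a RefSeq transcript, and a shared peak as a pair of peaks on the same transcript whose overlap covered 50% or more of the shorter one. The DCreg list held 13145 peaks on 6658 genes and the imDC list 10517 peaks on 6041 genes, together 23662 of the 40978 peaks and 7907 of the 9142 genes of the whole series.

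N6-methyladenosine (m6A) is a methyl mark on adenosine that a complex around Mettl3 and Mettl14 writes into mRNA, mostly at GGACT-like sequences near stop codons, in long exons and in 3′UTRs. Reader proteins of the YTH family bind the marked RNA and steer its splicing, translation or decay, and Fto and Alkbh5 can remove the mark. Immature DC take up antigen, matured DC present it with co-stimulatory molecules, and regulatory DC restrain T cells. The value given for a peak is the log2 enrichment, IP over input with each window's count divided by the median window of the same transcript, so it states how strongly a site stands out within its own transcript and not how much transcript there is. The authors kept a site only where both replicates reached a log2 enrichment of 1, the lowest value in either list, and deposited 1 joint list per DC type, so counts of genes and peaks carry no replicate error. Without a peak, an unmarked transcript cannot be told apart from one that was absent or rare. The read depth of the libraries is unknown.

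The replicates did not group by DC type. Across the 6115 shared peaks, Pearson's r of the log2 enrichment was 0.51 between the DCreg replicates and 0.37 between the imDC replicates, while DCreg replicate 1 and imDC replicate 2 reached 0.65 and DCreg replicate 2 and imDC replicate 2 only 0.25. These are correlations across peaks, which share transcripts and libraries, and are given as a description. They cover shared peaks alone, whose values were cut at a log2 enrichment of 1. The paper reports a strong correlation between biological replicates without naming the measure, so it cannot be set beside these values. By the labels, the libraries of imDC replicate 1 were made with TruSeq reagents and those of the other 3 replicates with NEBNext reagents. The imDC replicate 1 column held 7308 distinct values among 10517 peaks, fewer than the 9649 of imDC replicate 2. The part of the kit in the results was not tested, and the values of single peaks are therefore given by replicate.

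Sequences of 3 kinds recurred in the peaks that the results turn on, and some of them are shown here in the sense of the transcript, from RefSeq transcripts on GRCm38, the assembly also named mm10. The first set holds GGACT, the core m6A motif, in capitals. Cd40, Pdcd1lg2 and Il4i1 had peaks in imDC alone, Rnase4 in DCreg alone, Adcy6 a shared peak lower in DCreg, and Pde4b and Tnfrsf1b shared peaks high in all 4 replicates.
Cd40: ctggctctgaGGACTgcttgctgac
Pdcd1lg2: agagacttctGGACTcaaagtgaga
Il4i1: gcgaggctgaGGACTatgactggtc
Rnase4: tgaaggtcacGGACTgcagagagac
Adcy6: gcattgagtgGGACTttgtgctcgc
Pde4b: agaggagcagGGACTgccaaggcct
Tnfrsf1b: gaattggaaaGGACTgttcctgggt
The Cd40 stretch lies at chr2:165070961-165070985 at the stop codon, that of Pdcd1lg2 at chr19:29470566-29470590 in the 3′UTR, that of Il4i1 at chr7:44840191-44840215 in the CDS and that of Rnase4 at chr14:51105134-51105158 in the CDS. The Adcy6 stretch lies at chr15:98592283-98592307 in the 3′UTR, that of Pde4b at chr4:102605125-102605149 in the CDS and that of Tnfrsf1b at chr4:145214511-145214535 in the 3′UTR.

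The second set comes from peaks that were strong in DCreg. Capitals mark the start of a run made of purines alone (A and G) or of pyrimidines alone (C and T), which went on beyond the stretch shown. Zmat3, Tanc2 and Lpl had shared peaks that were higher in DCreg, and Cx3cr1, Elovl6 and Amer1 were marked in DCreg alone.
Zmat3: cccctgCCTTTTTCTTTCTTTCTTTCTTTC
Tanc2: aagagtAAGAGAGGAAGAAAGAAAGAAAGA
Lpl: aggaagGAAGGAAGGAAGGAAGGAAGGAAG
Cx3cr1: gagggaGGGAGGGAGGGAGGGAGGGAGGGA
Elovl6: tattctGAAAGAAAGAAAGAGAAAGAAAGA
Amer1: gatgatGAAGAAGAAGAAGAAGAAGAAGAA
In Lpl and Cx3cr1 the run entered the peak from its first base, so the lower-case letters before the capitals belong to the same run. The stretches lie at chr3:32340529-32340558 (Zmat3), chr11:105924309-105924338 (Tanc2), chr8:68905519-68905548 (Lpl), chr9:120049172-120049201 (Cx3cr1) and chr3:129634947-129634976 (Elovl6), all in 3′UTRs, and at chrX:95427344-95427373 (Amer1) in the CDS. The third set holds the first bases of 2 shared peaks that were lower in DCreg and lay at the 5′ end of the transcript, with CG dinucleotides in capitals.
Pip4k2a: ggggctggagcaggCGCGcagCGgCGgcCG
Ythdc1: gCGcCGccCGgCGtCGccatctgtgtctct
They lie at chr2:18998092-18998121 and chr5:86804266-86804295.

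Of the 7907 genes with a peak in DCreg or imDC, 4792 were in both lists, 1866 (23.6%) in the DCreg list alone and 1249 (15.8%) in the imDC list alone. The strongest peak of a gene was ranked by the lower of its 2 replicate values, and for genes in both lists it was taken over both lists. Genes in both lists thus had more peaks to draw from, which widens their gap to the other classes by construction. The strongest peak reached 2 in 69.7% of the genes in both lists, against 27.4% of genes in DCreg alone and 17.9% of genes in imDC alone. It stayed below 1.5, near the threshold of the lists, in 44.2% of genes in DCreg alone, 55.9% of genes in imDC alone and 9.12% of genes in both. A peak in maDC was listed for 95.8% of genes in both lists, 67.1% of genes in DCreg alone (95% exact interval 65.0 to 69.3, counting of genes only) and 77.9% of genes in imDC alone (75.5 to 80.2). Transcripts in DCreg alone had a median length of 3085 nt (interquartile range 2025 to 4536), those in imDC alone 2549 nt (1720 to 3909) and those in both lists 3514 nt.

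The 12 genes of the DCreg list alone with the highest lower value included Camk2a, Cx3cr1, Rfx3, Amer1, Trmt10a, Elovl6, B4galt7, Trim2, Rgs7bp, Smpd3 and Rnase4. Cx3cr1, the receptor of fractalkine on monocytes and macrophages, had 1 peak at nucleotides 3241 to 3431 of its transcript and its log2 enrichments in the replicates were 4.88 and 5.24. Elovl6, an elongase of long-chain fatty acids, had 4.52 and 5.89. Both peaks lay in the 3′UTR over runs of the second kind shown above, with a longest run of 184 nt in Cx3cr1 and 84 nt in Elovl6. Of these 12 peaks, 9 lay in 3′UTRs, 10 held a purine or pyrimidine run of at least 30 nt, 1 held GGACT and 3 were on genes with a peak in maDC. The exceptions without such a run were B4galt7, a galactosyltransferase of proteoglycan synthesis, with 4.73 and 4.51, and Rnase4, a secreted ribonuclease, with 4.15 and 4.21. The Rnase4 peak held GGACT and overlapped a maDC peak with 2.18 and 3.19. Once peaks with such a run were set aside, a selection made after the sequences were seen, the next strongest peaks in DCreg alone were on Hmgb1, a chromatin protein and alarmin (4.38 and 3.96), the Notch regulator Neurl1b (3.81 and 5.44) and, further down, Dkk2, a Wnt antagonist (3.66 and 3.66), and C3ar1, the receptor of complement C3a (3.93 and 3.64).

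The 12 genes of the imDC list alone with the highest lower value were Npr1, Cd40, Il4i1, Nup62-il4i1, Adam11, Pvrl1, Pdcd1lg2, Cacnb1, Acadl, Sema7a, Socs7 and Slc27a3, and every one of them also had a peak in maDC. Cd40, the co-stimulatory receptor by which helper T cells license DC, had 4.18 and 4.51 at its stop codon in imDC, and the overlapping maDC peak had 4.84 and 4.49. Pdcd1lg2 (PD-L2), a ligand of the inhibitory receptor PD-1, had 3.60 and 4.60 in imDC and 3.85 and 4.60 in maDC. Il4i1, a secreted amino acid oxidase that restrains T cells, had 4.23 and 4.05 in imDC and 4.13 and 4.48 in maDC. The readthrough transcript Nup62-il4i1 contains the same site, so its values are not separate evidence. Npr1, the receptor of natriuretic peptide, had 5.28 and 4.25, and Sema7a, a membrane-anchored semaphorin, had 5.23 and 3.48 at the strongest of its 4 peaks. Of the 6 distinct sites whose transcript sequence could be checked, 4 held GGACT and 0 held a run of 30 nt, and their longest run was 10 nt.

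Long purine or pyrimidine runs were more frequent in peaks than in windows of the same length, and their share was highest among strong DCreg peaks. Over peaks with a checked sequence, 391 of 11639 DCreg peaks (3.36%, 95% exact interval 3.04 to 3.70) and 288 of 9286 imDC peaks (3.10%, 2.76 to 3.47) held a run of at least 30 nt, while 0.774% and 0.790% of all windows of the same lengths in the same transcripts did. In DCreg the share went from 1.78% of peaks with a lower value under 1.5 to 21.5% (16.4 to 27.3) of the 233 peaks with a lower value of at least 4, and in imDC from 2.51% to 7.41% (2.06 to 17.9) of 54 peaks. Among genes in 1 list, 13 of the 15 DCreg peaks at or above 4 held a run, against 0 of 4 imDC peaks, which is too few for a share. Genes whose every peak held such a run made up 3.73% of the genes in DCreg alone and 0.880% of those in imDC alone, so most genes of either class did not depend on them. On the transcript strand, 220 DCreg peaks held a purine run and 172 a pyrimidine run. The runs were picked out as a feature after the sequences were seen.

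**Figure D1:**
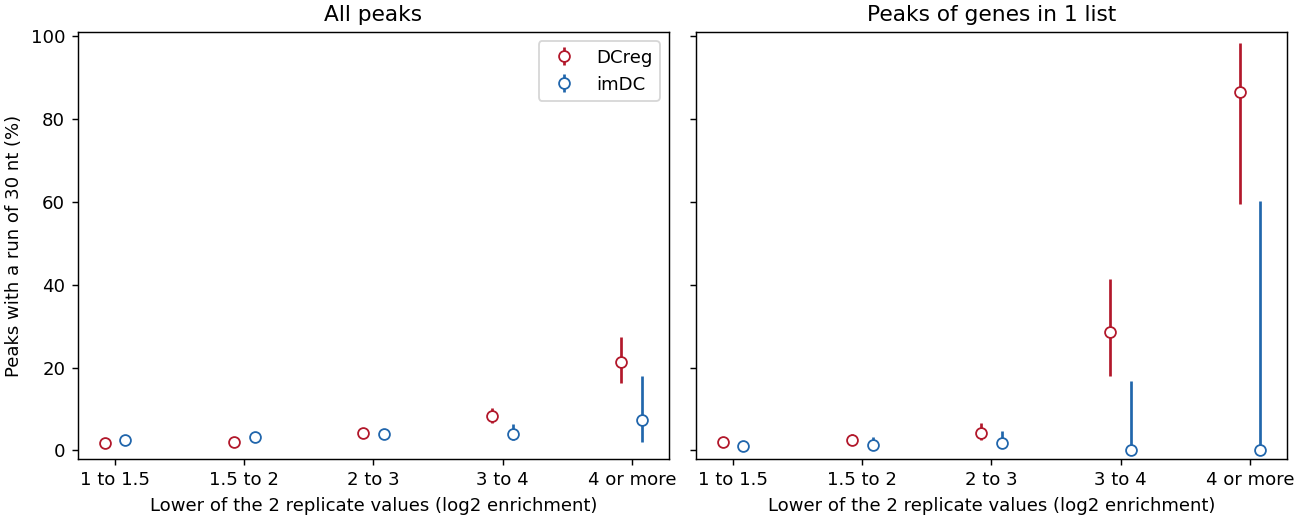
Share of m6A peaks that hold a run of at least 30 nt of purines alone or pyrimidines alone (y axis, %), against the lower of the 2 replicate log2 enrichments of the peak (x axis, binned), for all peaks (left) and for peaks of genes in 1 list (right), in DCreg (red) and imDC (blue), with 95% exact intervals. In DCreg the share reaches 21.5% of all peaks at or above 4 and 13 of 15 peaks of genes in DCreg alone.

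The DCreg list held smaller shares of its peaks at the 5′ end of the transcript and larger shares in the CDS and 3′UTR. Peaks in the 5′UTR made up 4.69% of the DCreg list (95% exact interval 4.34 to 5.07) and 11.6% of the imDC list (11.0 to 12.2), and peaks at the start codon 6.66% (6.24 to 7.10) and 14.6% (upper bound 15.3). The CDS held 47.1% (46.3 to 48.0) of DCreg peaks and 37.3% (36.3 to 38.2) of imDC peaks, and the 3′UTR 28.6% and 22.8%. Stop codon peaks, the classical site of m6A, were close in share, at 11.7% (11.2 to 12.3) and 12.4% (11.8 to 13.1). A peak began within the first 50 nt of the transcript in 3.93% of DCreg peaks and 14.6% of imDC peaks, with maDC at 9.44%. The intervals cover the counting of peaks and not the spread between replicates.

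Shared peaks overlap by definition, so the 5′ excess of imDC had to lie in peaks that DCreg did not share. Among shared peaks the 5′UTR held 6.15% by the DCreg annotation and 6.56% by the imDC annotation. Among peaks of genes in both lists that had no partner, the 5′UTR held 21.3% (19.8 to 22.8) of 2770 imDC peaks but 3.19% (2.69 to 3.76) of 4290 DCreg peaks, and the CDS 31.9% and 52.7%. For genes in imDC alone, 14.2% of peaks lay in the 5′UTR and 21.1% at the start codon, against 3.80% and 6.24% for genes in DCreg alone. The imDC peaks in the 5′UTR were rich in G and C, with a median GC content of 70.4% against 63.1% for the DCreg peaks there. GGACT was found in 22.9% of imDC and 22.5% of DCreg 5′UTR peaks, below the 42.0% and 37.0% of stop codon peaks.

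**Figure D2:**
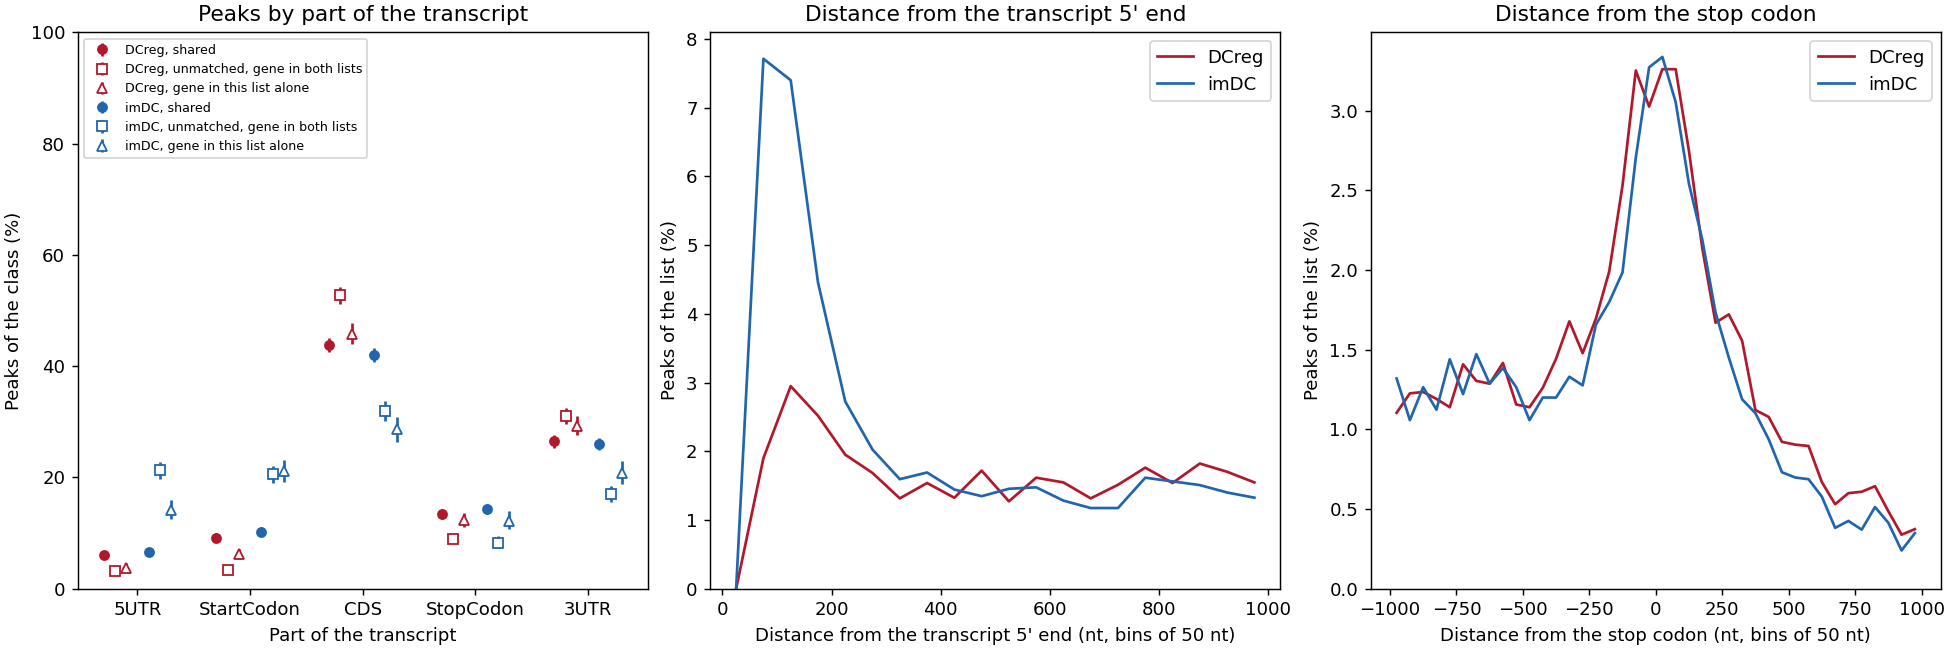
Left, share of peaks (y axis, %) in each part of the transcript for shared peaks, unmatched peaks of genes in both lists and peaks of genes in 1 list, with 95% exact intervals, in DCreg (red) and imDC (blue). Middle and right, share of each list's peaks in bins of 50 nt by the distance of the peak centre from the 5′ end and from the stop codon. Unmatched imDC peaks reach 21.3% in the 5′UTR against 3.19% in DCreg, while the curves around the stop codon lie close together.

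Inside the transcript, the DCreg list reached further into short internal exons. With peak centres placed on the exons of the RefSeq transcripts, 23.9% (23.1 to 24.6) of DCreg peaks lay in internal exons of at most 400 nt against 13.6% (12.9 to 14.3) of imDC peaks, and 10.3% against 26.2% in the first exon. Long internal exons, a preferred place of m6A, held 14.4% (13.8 to 15.1) and 14.1% (13.4 to 14.8), and the last exon 49.4% and 44.1%. Peak centres within 200 nt of the stop codon made up 22.2% of DCreg peaks (21.5 to 23.0) and 20.9% of imDC peaks (20.1 to 21.7).

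GGACT was more frequent in peaks than in windows of the same length along the same transcripts, in every class. It was found in 30.5% of shared peaks by the DCreg range, against 19.3% of windows, and in 32.5% by the imDC range, against 20.2%. For unmatched peaks of genes in both lists the shares were 21.9% against 16.7% in DCreg and 23.8% against 18.3% in imDC, and for genes in 1 list 22.6% against 16.7% and 27.1% against 19.2%. Of 5360 shared peaks with a checked sequence, 1520 (28.4%) held the same GGACT inside both ranges. Only GGACT on the transcript strand was searched, so a peak without it may hold another form of the m6A consensus.

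Within genes marked in both DC types, the sites often differed. DCreg had more peaks than imDC on 1705 of the 4792 genes, fewer on 953 and the same number on 2134, with means of 2.17 and 1.85 peaks per gene. Kmt2d, which methylates histone H3 at enhancers, had 11 peaks in DCreg and 18 in imDC, of which 9 were shared. Macf1, a linker of actin and microtubules, had 12 and 4, with all 4 shared, and Akap13, an anchoring protein of protein kinase A, had 11 and 8, with 5 shared. Igf1r, the receptor of IGF1, had 7 and 9, with 6 shared. Outside the genes in both lists, Phlpp1, a phosphatase of Akt, had 9 peaks in imDC and none in DCreg. All peaks of both types were shared on 1414 genes, and 582 genes had no shared peak. On 311 of these 582 genes the strongest imDC peak lay in the 5′UTR or at the start codon while the strongest DCreg peak lay further 3′, and on 21 genes the arrangement was the reverse. Ptp4a2, a phosphatase of the PRL family, is an example chosen after its values were seen, with 2.97 and 5.54 at nucleotides 1285 to 1441 of the 3′UTR in DCreg and 2.62 and 3.28 at nucleotides 1 to 108 in imDC.

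At the 6115 shared peaks, whose levels can be compared by replicate, the median log2 enrichment was 2.65 and 2.30 in the DCreg replicates and 2.05 and 2.22 in the imDC replicates. The median difference, DCreg minus imDC, was 0.31, with the middle 50% of peaks between -0.11 and 0.76, and it was above 0 in each of the 4 pairings of a DCreg with an imDC replicate (0.12 to 0.50). Both DCreg replicates lay above both imDC replicates at 1845 peaks (30.2%) and below them at 439 (7.18%). With each column centred on its median these counts became 980 and 1047, so the excess of higher peaks was not seen after centring. By limma over all shared peaks, 0 peaks passed a Benjamini-Hochberg adjusted p of 0.05 as higher in DCreg (0%) and 0 as lower (0%). At an unadjusted p under 0.05 limma gave 330 peaks (5.4%) higher and 55 (0.899%) lower, and the smallest adjusted p of all was 0.117.

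The 10 shared peaks with the largest excess in DCreg, among those whose replicates did not overlap, are thus given as values without a call. Zmat3, a zinc finger protein that p53 induces, had a log2 enrichment of 5.14 and 7.23 in DCreg and 1.84 and 1.56 in imDC at nucleotides 1971 to 2126 of its 3′UTR, a difference of 4.49 ± 0.86 (SE, n = 2 per type, adjusted p = 0.117 by limma). In maDC the overlapping peak had 2.38 and 3.61, between the other DC types. The Zmat3 difference was 3.44 to 5.54 when each replicate was left out in turn. Lpl, the lipoprotein lipase, had 5.53 and 7.34 in DCreg and 3.49 and 2.75 in imDC. Tanc2, a scaffold protein, had 4.70 and 5.81 against 2.55 and 1.00, where imDC replicate 2 sat on the threshold. The Tanc2 difference was 2.71 to 4.26 when each replicate was left out in turn. Nol3, an inhibitor of apoptosis, had 4.70 and 5.25 against 2.21 and 1.27, and Frrs1, a ferric reductase, had 5.57 and 5.28 against 2.55 and 2.01. The others were Dbt, a subunit of the branched-chain keto acid dehydrogenase, Pelp1, a coregulator of nuclear receptors, the poly(A)-binding protein Pabpc4, Magt1, a magnesium transporter, and the receptor Nfam1, with differences of 2.74 to 3.09. Of the 10 peaks, 8 lay in the 3′UTR and 8 held a purine or pyrimidine run of at least 30 nt, while 0 held GGACT, and their median GC content was 40.0%. Pabpc4 and Nfam1 were the exceptions, with longest runs of 10 and 25 nt. Most peaks that were higher in DCreg held no such run. With a checked sequence, 85 of 1618 peaks higher in both DCreg replicates (5.25%) held one. So did 9 of 387 lower in both (2.33%) and 119 of 3355 whose replicates overlapped (3.55%).

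The 10 shared peaks with the largest deficit in DCreg had the opposite make-up. Pip4k2a, a phosphoinositide kinase, had 1.51 and 1.66 in DCreg and 5.90 and 3.60 in imDC over the first 100 nt of its transcript, a difference of -3.16 ± 0.81 (SE, n = 2 per type, adjusted p = 0.732 by limma). Ppp2cb, a catalytic subunit of protein phosphatase 2A, had 2.72 and 1.00 against 6.71 and 3.02 in the 5′UTR. When each replicate was left out in turn, the difference was -4.31 to -2.01 for Pip4k2a and -4.86 to -1.16 for Ppp2cb, smallest in size without imDC replicate 1. Ccnd2, cyclin D2, had 2.22 and 1.22 against 4.07 and 4.10 in the 5′UTR, and Ythdc1, the nuclear m6A reader, had 2.57 and 1.55 against 5.20 and 2.95 at the start codon. Among the others were the kinase Dyrk1a, the transcription factor Yy1, the protein kinase C substrate Marcks, the adenylyl cyclase Adcy6 and the G protein subunit Gnb1, with differences of -2.04 to -2.50. By the DCreg range, 4 of the 10 peaks lay in the 5′UTR, 3 at the start codon and 5 began within the first 50 nt, and the median GC content was 71.0%. A GGACT was found in 3 of the 10 and a run of 30 nt in 1, Ccnd2. In 8 of the 10 peaks the imDC replicate 1 value, from the TruSeq libraries, was the higher of the 2 imDC values. Without that replicate the difference went from -2.34 to -0.44 for Marcks, from -2.02 to -0.89 for Ythdc1 and from -2.04 to -0.99 for Gnb1. It moved little for Ccnd2 (-2.37 to -2.38) and Adcy6 (-2.30 to -2.12). Adcy6 stood apart as a 3′UTR peak with 2 GGACT sites and close replicates, at 2.65 and 2.46 in DCreg, 5.03 and 4.67 in imDC and 4.65 and 4.37 in maDC.

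The 10 shared peaks with the highest lowest value over all 4 replicates were high in both DC types by the way they were chosen. Arih1, a ubiquitin ligase, had 6.30 and 5.28 in DCreg and 6.26 and 5.41 in imDC in the CDS, and Rab5a, a GTPase of early endosomes, had 5.76 and 4.93 against 5.06 and 4.97 in the 5′UTR. Tnfrsf1b, the TNF receptor 2, had 5.26 and 4.95 against 5.10 and 4.55, and Pik3r1, the regulatory subunit of PI3 kinase, had 5.34 and 4.51 against 5.08 and 4.68. Pde4b, a phosphodiesterase of cAMP, had 5.14 and 4.56 against 5.64 and 5.34, with no overlap but a difference within its error (-0.64 ± 0.95 SE). Dek, Nisch, Hnrnpll, Arl5a and Cd24a completed the group, and Nisch and Hnrnpll were higher in both DCreg replicates than in either imDC replicate, by 1.23 and 0.71. All 10 had an overlapping peak in maDC, as did 90.1% of all shared peaks. Of the 10, 5 lay in the CDS, 4 in the 3′UTR and 1 in the 5′UTR, and 3 held GGACT.

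**Figure D3:**
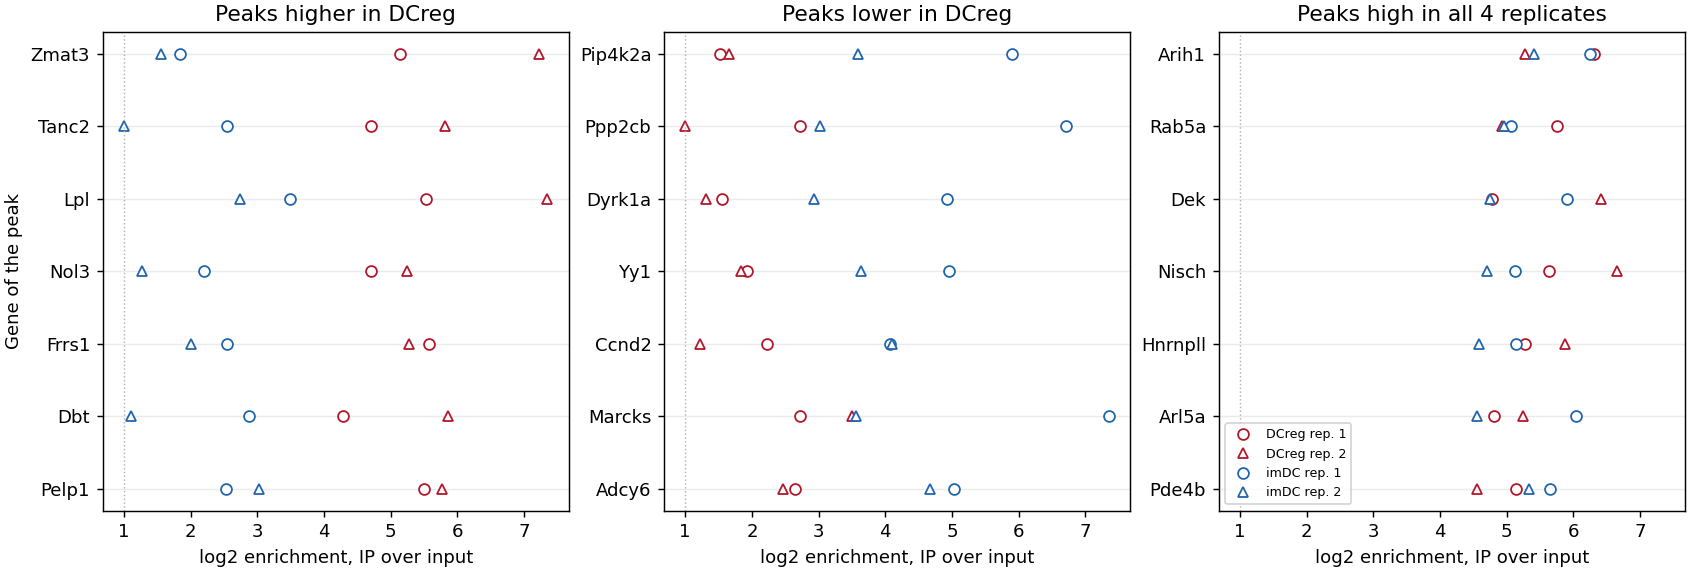
log2 enrichment, IP over input (x axis), of each replicate at shared peaks named by gene, for the 7 with the largest excess in DCreg, the 7 with the largest deficit and the 7 with the highest lowest value. Red is DCreg and blue imDC, circles are replicate 1 and triangles replicate 2, and the dotted line marks the threshold of 1. At Zmat3 the DCreg values of 5.14 and 7.23 lie apart from the imDC values of 1.84 and 1.56, while at Arih1 all 4 lie between 5.28 and 6.30.

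The difference at shared peaks followed the part of the transcript. Its median was -0.18 at 376 peaks of the 5′UTR and -0.02 at 562 peaks of the start codon, against 0.41 at 2679 peaks of the CDS, 0.28 at 820 stop codon peaks and 0.36 at 1619 peaks of the 3′UTR. At the 5′ end the sign depended on the DCreg replicate. Against imDC replicates 1 and 2, DCreg replicate 1 gave 0.03 and 0.19 in the 5′UTR and 0.13 and 0.14 at the start codon. DCreg replicate 2 gave -0.53 and -0.41 in the 5′UTR and -0.18 and -0.27 at the start codon. The 5′UTR lay below the CDS in each of the 4 replicate pairings, by 0.28 to 0.91, and so did the start codon, by 0.33 to 0.58. With the columns centred on their medians, the 5′UTR stood at -0.52, the start codon at -0.37, the CDS at 0.07 and the 3′UTR at 0.01. Both DCreg replicates lay above both imDC replicates at 995 of the CDS peaks (37.1%) and 45 of the 5′UTR peaks, against 30.2% of all shared peaks. They lay below at 4.78% and 21.0%, against 7.18% of all. DCreg replicate 2 carried much of the low 5′UTR level, with a median of 1.91 there against 2.47 in replicate 1.

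**Figure D4:**
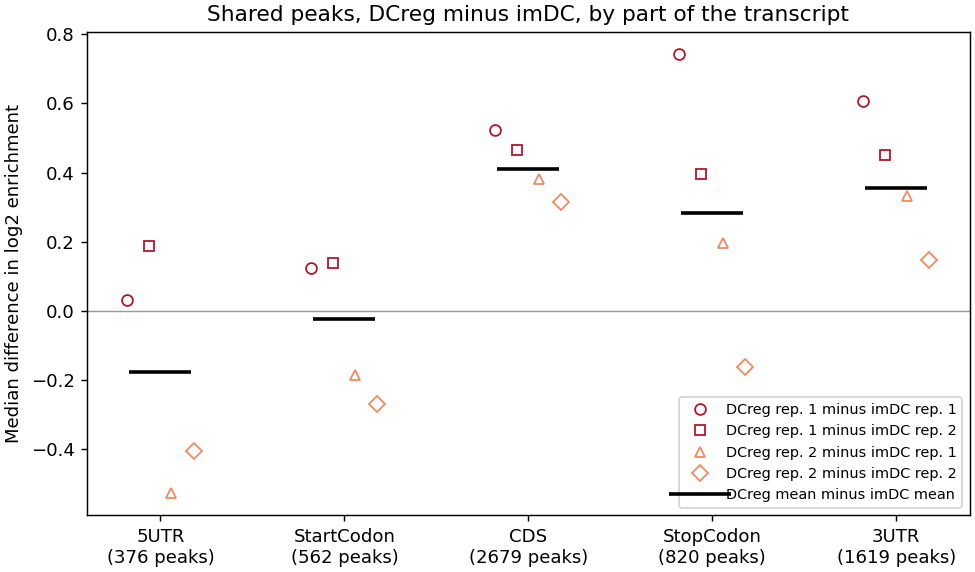
Median difference in log2 enrichment at shared peaks, DCreg minus imDC (y axis), by part of the transcript (x axis, with the number of peaks). Each symbol is 1 pairing of a DCreg replicate with an imDC replicate, and the black bar is the difference of the means. The 5′UTR and start codon lie below the CDS in all 4 pairings, and are negative only in those with DCreg replicate 2.

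GC content moved with the difference, also within a part of the transcript. In the CDS the median difference was 0.63 in the tertile of peaks lowest in GC, 0.47 in the middle and 0.19 in the highest, and in the 3′UTR 0.61, 0.44 and 0.14. In the 5′UTR it was 0.16, -0.24 and -0.58. The replicates did not follow GC alike. From the lowest to the highest tertile, the median of DCreg replicate 2 went from 2.59 to 2.17 in the CDS, from 2.78 to 2.10 in the 3′UTR and from 2.07 to 1.64 in the 5′UTR. That of imDC replicate 1 went from 1.76 to 2.34, from 2.09 to 2.17 and from 2.04 to 2.88. DCreg replicate 1 went from 2.60 to 2.68, from 2.77 to 2.84 and from 2.31 to 2.78, and imDC replicate 2 from 2.13 to 2.14, from 2.02 to 2.46 and from 2.07 to 2.54. Thus only DCreg replicate 2 was lower in GC-rich peaks, and the other 3 were level or higher there. Peaks higher in both DCreg replicates had a median GC content of 52.2% and those lower in both 60.2%. The 213 shared peaks with a purine or pyrimidine run had a median difference of 0.75, against 0.31 for the 5147 without. At the 105 with a purine run it was 0.91, with medians of 3.20 and 2.95 in DCreg and 2.21 and 2.28 in imDC. At the 108 with a pyrimidine run it was 0.48, with medians of 2.79 and 3.28 in DCreg and 3.34 and 1.99 in imDC, so there imDC replicate 1 lay above both DCreg replicates and the groups overlapped. The part of GC content and of these runs in the difference between DC types was not tested.

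Gene lists from DC biology were counted by whether their members had a peak in DCreg alone, in imDC alone or in both, and read against the 23.6% and 15.8% of all genes in either list. Co-stimulatory and co-inhibitory molecules had no member in DCreg alone, 10 in both lists and 5 in imDC alone. The 5 were Cd40, Pdcd1lg2, Cd200, Tnfrsf9 and Tnfsf4, all with a peak in maDC too. Cd200, which restrains myeloid cells through its receptor, had 2.86 and 3.07 in imDC, while Tnfrsf9 (4-1BB) had 1.07 and 1.54, near the threshold. Cd80, a ligand of CD28, had a shared 3′UTR peak at 2.88 and 2.16 in DCreg and 4.06 and 3.34 in imDC, a difference of -1.18 ± 0.75 (SE, adjusted p = 0.817 by limma). Its CDS peak, with 1.89 and 1.73, was listed in imDC and not in DCreg. Cd86, the other CD28 ligand, had 2.31 and 1.21 against 1.71 and 2.01 at the shared site, where the types overlapped, and a second 3′UTR peak in imDC with 1.88 and 2.59. Cd274 (PD-L1) had 4 peaks in each type, and at the CDS site DCreg had 3.98 and 3.53 against 3.34 and 2.89. At the other shared Cd274 sites, in the 3′UTR by the DCreg range, the types overlapped, with differences of -0.15 and 1.66. Of the 14 shared peaks of the list, 6 were higher and 4 lower in both DCreg replicates, against 30.2% and 7.18% of all shared peaks. The median difference over these 14 peaks was 0.14, below the 0.31 of all shared peaks.

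Antigen presentation and interferon-stimulated genes also had a larger share in imDC alone. Of 27 antigen presentation genes with a peak, 8 (29.6%) were in imDC alone and 4 (14.8%) in DCreg alone. Tap1, a subunit of the peptide transporter, had 2.02 and 2.29 in imDC, Nlrc5, the transactivator of MHC class I genes, 1.89 and 2.60, and H2-Eb2, an MHC class II chain, 1.36 and 1.74. Erap1, which trims peptides in the ER, had 3.20 and 2.67 in DCreg alone. In both lists, Ctsb, a lysosomal protease, had 4.60 and 4.10 in DCreg against 3.99 and 2.91 in imDC, and the ER chaperone Canx had 4.01 and 4.43 against 2.62 and 3.52. Of the 17 shared peaks of the list, 7 were higher and 2 lower in both DCreg replicates. Of all shared peaks, 30.2% were higher and 7.18% lower. The 2 lower peaks of the list were on Tapbpl, with 1.40 and 1.77 against 4.37 and 2.09 and with 1.03 and 2.10 against 2.78 and 3.07. Of 30 interferon-stimulated genes with a peak, 10 (33.3%) were in imDC alone and 5 (16.7%) in DCreg alone. Rsad2 (viperin) had 2.59 and 3.81 in imDC, Usp18, which removes ISG15 and blunts interferon signaling, 2.58 and 2.80, Irf9, a subunit of the ISGF3 complex, 3.00 and 2.48, and Ifit3 2.60 and 2.26.

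Genes of TLR and NF-κB signaling fell into the classes much as all genes did. Of the 43 genes of the list with a peak, 11 (25.6%) were in DCreg alone, close to the share of all genes, and 6 of these 11 were receptors, a subset picked out after its values were seen. Tlr7, an endosomal sensor of single-stranded RNA, had 3.13 and 2.83, Tlr1, a partner of Tlr2 in lipopeptide sensing, 2.31 and 2.71, Tlr4, the LPS receptor, 2.45 and 2.13, and Tlr8 2.13 and 2.08. Tlr2 and Tlr9, a sensor of unmethylated DNA, had peaks in both types that overlapped between them, with 1.19 and 1.42 in DCreg against 1.88 and 1.28 in imDC for Tlr2 and 2.95 and 1.88 against 3.30 and 1.33 for the stronger peak of Tlr9. Tirap, the adaptor that joins Tlr4 to Myd88, had 2 peaks in DCreg, with 1.85 and 1.36 in the CDS and 1.73 and 1.53 in the 3′UTR, and none in imDC. In imDC alone were 5 genes, among them the NF-κB subunit Rel with 3.98 and 2.85 and the adaptors Traf2 and Traf1 with 3.01 and 3.35 and with 2.85 and 2.62. In both lists, Nfkbie, an inhibitor of NF-κB, had 3.88 and 3.81 in DCreg against 2.87 and 2.47 in imDC in the 3′UTR, and Irf5 had 3.57 and 3.51 against 3.91 and 3.49. At the CDS peak of Nfkbie the types overlapped, with 1.95 and 2.49 against 3.62 and 1.93. The median difference over the 36 shared peaks of the list was 0.03.

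Pattern receptors outside the Toll family and C-type lectins had 11 of 25 genes (44.0%) in DCreg alone and 4 in imDC alone. Nlrp1b and Nlrc4, which nucleate inflammasomes, had 4.32 and 3.39 and 4.02 and 3.36 in DCreg, and the lectins Clec4a2 and Mrc1, the mannose receptor, had 3.61 and 4.46 and 2.88 and 3.10. In imDC alone, Ly75 (DEC-205), an endocytic receptor of DC, had 1.74 and 2.93 and Mb21d1 (cGAS), a sensor of cytosolic DNA, 2.09 and 1.45. Nod2, a sensor of bacterial peptidoglycan, had 3.44 and 2.94 in DCreg against 2.45 and 2.21 in imDC at a shared peak. Lysosomal and autophagy genes had 32 of 44 genes in both lists, 10 (22.7%) in DCreg alone and 2 (4.55%) in imDC alone. The kinase Ulk2, which starts autophagy, had 4.14 and 3.50 in DCreg alone, and Mitf, a transcription factor of lysosomal genes, had 3.28 and 2.77 at the strongest of its 6 peaks. Lamp1 had 3.57 and 2.10 in imDC alone.

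Among cytokines, 8 of 31 genes had a peak in either type, 6 in both and 2 in imDC alone. Ebi3, a subunit of IL-27 and IL-35, had 3.92 and 2.99 in DCreg and 2.82 and 3.30 in imDC, and Vegfa had 4 peaks in each. Lif, a cytokine of the IL-6 family, had 3 peaks in imDC, the strongest with 2.70 and 2.58, and none in DCreg. Il6 and Il12b, proinflammatory cytokines, had no peak in either type and 1 and 2 peaks in maDC. Chemokines and their receptors had 4 of 16 in DCreg alone and 4 in imDC alone (25% each, against 23.6% and 15.8% of all genes). Ccl2, which attracts monocytes, had 2.72 and 2.61 in DCreg, while Cx3cl1, the ligand of Cx3cr1, had 2.83 and 2.57 in imDC. Ccr7, which guides DC to lymph nodes, had 2.34 and 2.83 in DCreg against 4.01 and 3.08 in imDC at a shared 3′UTR peak.

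Over the 25 shared peaks of semaphorins, plexins and neuropilins the median difference was 0.12, below the 0.31 of all shared peaks. Of these 25 peaks, 6 were higher and 1 lower in both DCreg replicates, against 30.2% and 7.18% of all shared peaks. Within the list, the neuropilins, receptors of semaphorins, had strong peaks in DCreg. Nrp1, which also binds VEGF, had 5.56 and 6.74 in DCreg against 3.26 and 3.63 in imDC at its stop codon (2.70 ± 0.92 SE, adjusted p = 0.779 by limma), and Nrp2 had 4.72 and 5.49 against 3.99 and 3.82 in the 3′UTR. Plxna2, Sema3a and Sema3c had a peak in DCreg alone, with 3.31 and 2.27 in Plxna2, and Sema7a in imDC alone, while 12 of the 16 genes with a peak were in both lists. In Notch and TGF-β signaling 6 of 31 genes were in DCreg alone and 6 in imDC alone (19.4% each, against 23.6% and 15.8% of all genes). The receptor Tgfbr2 had 6 peaks in DCreg, the strongest with 3.45 and 2.25, the coactivator Maml2 had 2.64 and 2.85 and Smad3, which carries the TGF-β signal, 2.06 and 2.78. The ligands Jag2 and Jag1 had 2.74 and 2.92 and 1.47 and 1.43 in imDC alone. Histone lysine methyltransferases and demethylases were in both lists for 30 of 41 genes, with Kdm6b, an H3K27 demethylase, at 2.28 and 3.15 in imDC alone and Kdm7a at 3.91 and 1.98 in DCreg alone. In cell cycle and division 13 of 36 genes (36.1%) were in DCreg alone and 3 in imDC alone, and 5 of the 13 had a peak in maDC. The kinase Cdk6 had 2.53 and 2.95, Anln, which acts in cytokinesis, 2.63 and 2.35 and Birc5 (survivin) 2.58 and 2.20.

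Most genes of the m6A machinery had a peak in both DC types. Of 16 genes with a peak, 12 were in both lists, 4 in DCreg alone (25%, close to the 23.6% of all genes) and 0 in imDC alone. Ythdf1, a reader that promotes translation, had 2.89 and 3.62 in the CDS in DCreg, and Wtap, which holds the methyltransferase complex together, had 1.94 and 2.69 in the 3′UTR. Ythdf3, a cytoplasmic reader, had 5.30 and 5.01 in DCreg against 3.47 and 4.17 in imDC at a shared CDS peak. Ythdc1 had 4.15 and 3.33 against 2.72 and 2.56 in the CDS but 2.57 and 1.55 against 5.20 and 2.95 at the 5′ end. The Ythdc1 values thus went in both directions, without a call at either peak. Its 5′ difference was -2.02 ± 0.81 (SE, adjusted p = 0.779 by limma), and -0.89 without imDC replicate 1. Mettl14 had 1.40 and 1.07 in DCreg and 1.24 and 1.10 in imDC at a 5′UTR peak that overlapped between the types. Fto had 3.17 and 1.22 in the CDS in DCreg and 2.40 and 1.17 at the start codon in imDC, at sites that were not shared. Alkbh5 had 5 peaks in imDC, the strongest with 2.47 and 2.62 at the stop codon, and 2 in DCreg at other sites, with 1.75 and 2.78 in the 3′UTR. Ythdf2, a reader that promotes decay, had 2.59 and 2.03 against 1.01 and 2.15. Mettl3, Socs1 and Ctla4 had no peak in either list.

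Markers of other cell types also differed between the lists. Of 33 markers of endothelial and stromal cells, 9 had a peak in DCreg and 2 in imDC. In DCreg alone were 8, or 80% of the 10 with a peak, against 23.6% of all genes. These were the VEGF receptor Kdr, with 3.71 and 2.53, Vwf, which endothelial cells secrete, with 2.21 and 2.34 at the strongest of 3 peaks, the collagen genes Col3a1 (2.76 and 3.39), Col4a1, Col1a2 and Col1a1, the proteoglycan Bgn (2.67 and 3.06) and Sparc. Pecam1, Cdh5, Tek, Tie1 and Erg, further defining genes of endothelial cells, had no peak in DCreg or imDC, and Pecam1 had 1 in maDC. Of 23 macrophage markers, 15 had a peak in DCreg and 7 in imDC, with 8 (53.3% of the 15 with a peak) in DCreg alone. The 8 in DCreg alone included Mertk, a receptor for dying cells (4.04 and 4.00), Stab1 (2.58 and 3.36), Emr1, which encodes F4/80 (2.58 and 2.21), and Mrc1. Itgam (CD11b) had 5.65 and 5.19 in DCreg against 3.53 and 3.34 in imDC at a shared 3′UTR peak. Of 15 DC markers, 8 had a peak in DCreg and 11 in imDC, with 7 in both lists. In DCreg alone was 1 (8.33% of the 12 with a peak) and in imDC alone 4 (33.3%, against 15.8% of all genes). Itgax, which encodes CD11c, was among those in both lists. Zbtb46, a transcription factor of classical DC, had 2.02 and 1.70 in imDC alone, and Fscn1, Relb and Flt3 were also in imDC alone. Over the 7 shared peaks of DC markers the median difference was -0.75, with 0 higher and 2 lower in both DCreg replicates. Over the 10 shared peaks of macrophage markers it was 0.47, with 4 higher and 0 lower. Of all shared peaks, 30.2% were higher and 7.18% lower. Of 14 neutrophil markers, 3 had a peak in DCreg and 7 in imDC, with Mmp9 at 2.96 and 3.53 in imDC alone, and of 20 lymphocyte markers the same 2, Cd22 and Il7r, had a peak in each. A peak list gives no expression level, so no summed level of these markers could be given. The part of other cells in the difference between the lists was not tested.

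**Figure D5:**
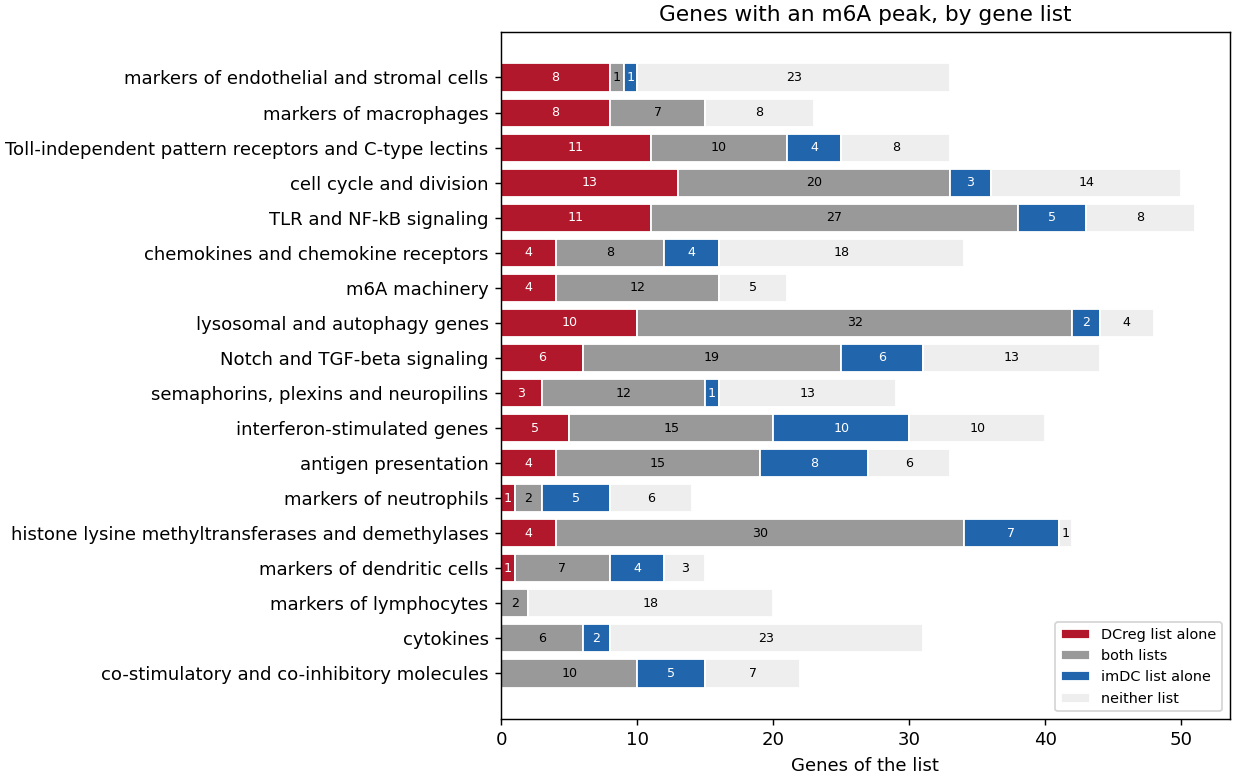
Number of genes (x axis) of each gene list (y axis) with an m6A peak in DCreg alone (red), in both lists (grey), in imDC alone (blue) or in neither (light). Co-stimulatory and co-inhibitory molecules have 0 genes in DCreg alone and 5 in imDC alone, and markers of endothelial and stromal cells 8 and 1. Of all genes in either list, 23.6% are in DCreg alone and 15.8% in imDC alone.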

How the data were processed

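RNA of imDC and DCreg was measured by meRIP-seq, with 2 replicates per type. The authors aligned reads to mm10 with TopHat2 2.0.14, compared IP with input in windows along the longest isoform by edgeR (version not given in the sources used here). They deposited, per type, 1 list of peaks with the log2 enrichment of each replicate, normalized within transcript and library, with 0 other value columns. Replicate columns were taken to follow the labels, which could not be checked. Lists of maDC were used for context. Depth is unknown, so no detection limit was given, and exact (Clopper-Pearson, 95%) intervals cover the counting of peaks or genes.

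Python 3.11.15 was used with SciPy 1.17.1, matplotlib 3.10.9 (figures), NumPy 2.4.6 and pandas 2.3.3. Peaks were joined by RefSeq transcript, and shared peaks were taken 1 to 1 as each other's best overlap. Their log2 values, as deposited, were compared by limma 3.58.1 in R 4.3.3 (lmFit, eBayes with trend, no block, two-sided), after a test on simulated data. Gene symbols came from the lists and RefSeq. Of the 7907 transcripts, 7055 (89.2%) had a GRCm38 sequence that held GGACT at the listed positions, and sequence features used these. Of 587 names in 18 gene lists, 583 distinct genes per list were counted. Named peaks were the 10 largest differences per direction without replicate overlap, the 10 with the highest lowest value, the 12 strongest per list among genes in 1 list, up to 4 per gene list and class, the 3 genes with most peaks and genes the study names. Members, lists and tests were chosen with earlier results of these data known, and the runs of purines or pyrimidines after the sequences were seen. Some named genes are not reported here. Alternatives were a replicate block, no trend, other scalings, other overlaps, stricter thresholds and leaving out each replicate.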

Additional observations from a re-analysis of the deposited data

How the results depend on the processing

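By limma, the shared peak calls, 0 higher and 0 lower, stayed at 0 and 0 with a replicate block, without trend, after quantile normalization, with an overlap of 50% of the longer peak and with every overlapping pair. Columns centred on their medians gave 1 higher (Zmat3) and 1 lower (Pip4k2a), and peaks with at least 1.5 in every replicate of 1 type gave 1 higher (Zmat3). Leaving out each replicate gave 0 to 2 higher and 0 to 2 lower. Without imDC replicate 1 these were Zmat3 and Tanc2, without DCreg replicate 1 Zmat3, and without imDC replicate 2 Pip4k2a and Ppp2cb, and the lone sample was assumed to vary like the other type. The replicate numbers are shared by label alone, and the deviations of same-numbered replicates went in opposite directions (Pearson's r -0.35 across shared peaks). A crossed replicate block, added after the data were seen, gave 34 higher and 5 lower. The 10 higher and 10 lower named peaks kept their direction under each of these settings that could be computed. Pelp1 and Dyrk1a had no pair at 50% of the longer peak. For most settings this outcome was fixed in advance. The named peaks were chosen without replicate overlap, so leaving out 1 replicate could not turn their direction. The blocks, the trend and the threshold of 1.5 leave the difference of a peak unchanged.

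The median difference of 0.31 became -0.028 with centred columns and 0.0050 after quantile normalization, and 0.16 to 0.44 leaving out each replicate. Of peaks at an unadjusted p under 0.05, 85.7% were higher in DCreg as deposited, 36.3% after centring and 47.0% after quantile normalization.

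Genes in both lists fell from 4792 to 2942 at a log2 enrichment of at least 1.5 and 1634 at 2, and genes in imDC alone from 1249 to 996 and 716. Genes in DCreg alone went from 1866 to 2010 and 1725, or from 23.6% to 33.8% and 42.3% of the genes in either list. The 5′UTR share was 4.20% (at 1.5) and 4.16% (at 2) in DCreg and 12.5% and 13.6% in imDC, with 12.5% for the strongest peak of each imDC gene. The start codon share was 5.93%, 5.04% and, for the strongest peak, 7.37% in DCreg, and 12.9% (at 2), 13.4% (genes in both lists) and 17.2% (strongest peak) in imDC. The CDS share was 43.3% in DCreg and 33.0% in imDC for the strongest peak, and 35.6% (at 2) and 38.8% (genes in both lists) in imDC. Setting aside peaks with a run of 30 nt, an alternative added later, moved none of these counts, the median or shares beyond their limits.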
